A study of Mus musculus with 4 samples.

Results

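Matricellular proteins are secreted into the extracellular matrix but, unlike fibrillar collagens, act mainly by modulating how cells bind and read that matrix. The genes described here are 10 of the 31053 genes in the count matrix. They were chosen by name with earlier results of these data known, so shares of all genes set beside them are a description. Sparc and Smoc2 are of the osteonectin family, Tnc encodes tenascin-C and Postn periostin. Thbs1, Thbs2 and Thbs4 are thrombospondins, Fn1 (fibronectin) and Vcan (versican) are provisional matrix genes, and Mgp encodes matrix Gla protein. The 10 genes were followed across classes of cells defined by marker genes, none of which is 1 of the 10.

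The study profiled single cells of the tibia, growth plate included and secondary ossification centres left out, at postnatal day 6 (P6). Both tibiae of 1 male mouse were pooled, and the genotype shared by every cell was Col10a1Cre;Rosa26-Tdtomato;Irx3 +/Δ;Irx5 +/-, which the study used as a heterozygous control. Cre was driven by Col10a1, so the tdTomato reporter marked hypertrophic chondrocytes and their descendants. The 4 sequencing entries were counted together as 1 library, and cells carry no entry name, so no other genotype, age or animal stands beside these values: no test between samples was possible, and every interval below covers counting error only.

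In the growth plate, chondrocytes proliferate, mature and become hypertrophic before the cartilage is invaded by vessels and replaced by bone, and some hypertrophic chondrocytes go on to become osteoblasts. Each step exchanges one matrix for another. Sparc binds collagen and mineral and is abundant in bone, tenascin-C and periostin mark the periosteum and other sites of matrix remodelling, fibronectin and versican form the loose provisional matrix that cells migrate through, thrombospondins bind growth factors and cell surface receptors, and Mgp is the vitamin K-dependent inhibitor that keeps cartilage and arteries from calcifying.

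After filtering, 8255 of 14181 barcodes remained, with a median of 13957 UMIs (unique molecular identifiers, 1 per captured transcript) and 3301 genes per cell. Clustering without the 10 genes gave 29 clusters. These were named by markers as 21 classes, 19 of them with at least 50 cells. Among them were 5 chondrocyte-like classes (1955 cells, median 22122 UMIs) and 2 osteoblast-like classes (898 cells, median 14227.5 UMIs). A further 168 cells in 2 clusters mixed blood genes with Col2a1 and stayed unnamed, and Scrublet, a doublet caller, marked 114 of them. Macrophage-like cells carried as many leading markers of osteoclasts, and the cycling chondrocyte-like class had the highest share of marked doublets among the named classes at 23.0%. Although the 10 genes were kept out of the clustering, Tnc and Vcan were among the 10 leading genes of the immature osteoblast-like cluster and Fn1 among those of the hypertrophic one, Postn, Thbs2, Thbs4 and Mgp led clusters named below, so levels by class are given as a description.

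Of the 10 genes, 6 had a highest class at least 2-fold above the next class, against 17.7% of all genes that reached 50 CPM (UMIs of a gene per 1000000 UMIs of a class). These were Thbs4, Fn1, Thbs1, Sparc, Thbs2 and Postn. Thbs4 was the most restricted, 36.3-fold above its next class on the scale with 1 CPM added, followed by Fn1 at 5.44-fold and Thbs1 at 4.78-fold. Tnc, Vcan, Smoc2 and Mgp each had a next class within 1.52-fold.

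**Figure D1:**
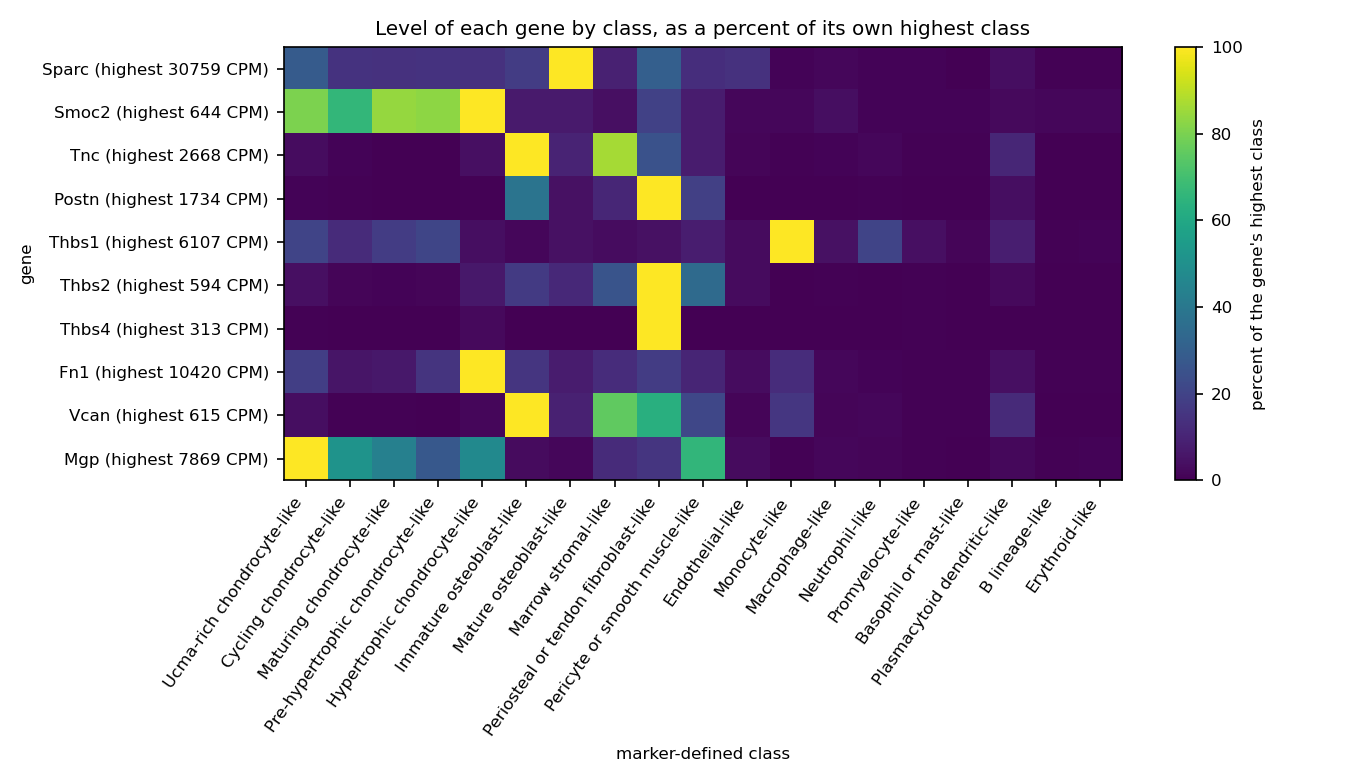
Level of the 10 genes (rows) in 19 marker-defined classes of at least 50 cells (columns), each coloured as a percent of that gene's own highest class, whose level in CPM stands beside the name. Smoc2 and Mgp were high across the chondrocyte-like classes, Tnc and Vcan in immature osteoblast-like and marrow stromal-like cells, and Thbs4 in 1 class.

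Tnc, Postn, Vcan and Thbs2 had the most similar profiles over these classes, and the 250 bases before their RefSeq start sites are shown for that reason (GRCm38.p6, 5′ to 3′ on the gene's strand). Tnc lies on the reverse strand and its window is chr4:64047016-64047265, that of Vcan, also reverse, is chr13:89742513-89742762, that of Postn, forward, is chr3:54360857-54361106, and that of Thbs2, reverse, is chr17:14694263-14694512. Capitals mark matches, on either strand, to any of 6 motifs searched: the TATA box as TATANAA, the AP-1 site as TGANTCA, the SP1 site as GGGCGG, the TEAD site as GGAATG, the RUNX site as TGTGGT, and the box read as CCAAT. None of these overlapped another in the 4 windows.
Tnc: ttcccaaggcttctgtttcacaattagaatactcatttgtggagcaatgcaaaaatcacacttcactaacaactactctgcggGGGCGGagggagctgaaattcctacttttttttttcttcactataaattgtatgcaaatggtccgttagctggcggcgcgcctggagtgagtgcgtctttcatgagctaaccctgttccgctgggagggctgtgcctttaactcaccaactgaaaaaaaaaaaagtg
Vcan: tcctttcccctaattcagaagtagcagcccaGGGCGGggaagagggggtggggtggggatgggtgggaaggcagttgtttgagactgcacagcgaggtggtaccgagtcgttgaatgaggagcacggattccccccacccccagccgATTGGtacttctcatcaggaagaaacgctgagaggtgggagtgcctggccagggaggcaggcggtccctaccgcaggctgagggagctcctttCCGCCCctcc
Postn: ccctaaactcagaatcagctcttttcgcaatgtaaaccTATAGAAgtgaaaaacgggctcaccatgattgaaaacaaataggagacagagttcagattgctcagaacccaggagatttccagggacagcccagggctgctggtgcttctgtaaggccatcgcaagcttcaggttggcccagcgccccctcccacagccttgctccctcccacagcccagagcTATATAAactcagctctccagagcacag
Thbs2: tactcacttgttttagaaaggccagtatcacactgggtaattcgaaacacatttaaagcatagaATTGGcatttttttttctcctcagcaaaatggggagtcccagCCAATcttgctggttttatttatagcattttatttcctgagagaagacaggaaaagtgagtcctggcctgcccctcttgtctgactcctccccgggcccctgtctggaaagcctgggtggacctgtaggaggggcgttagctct

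Windows were found for 6 of the 10 genes, 8 windows in all. Fn1, Thbs1, Smoc2 and Mgp had none. The printed Postn window held TATATAA 28 bases before the start, as did a second, downstream Tnc start at 29 bases. The other Postn window, upstream at chr3:54359017-54359266, held none of the 6 motifs. The TATA motif was found in 10.4% of all 32851 windows. GGGCGG or its reverse complement was present in both Tnc windows and in the Vcan and Thbs4 windows, and in 32.7% of all windows. CCAAT on either strand was present in the Vcan and Thbs2 windows and in 33.8% of all. Neither the AP-1 nor the RUNX letters were found in any of the 8 windows, against 6.75% and 14.05% of all windows, and GGAATG was found in the Thbs4 window alone, against 12.6%. No single motif of the 6 was present in all 4 printed windows. GC content was 44.8% for Tnc, 62.4% for Vcan, 52% for Postn and 46.8% for Thbs2, against a median of 52.4% over all windows.

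In GENCODE M21 (GRCm38), Tnc occupied chr4:63959785-64047015, Postn chr3:54361109-54391037, Fn1 chr1:71585520-71653200, Mgp chr6:136872435-136875823 and Sparc chr11:55394500-55423183. Vcan (chr13:89655312-89742509) and Thbs4 (chr13:92751590-92794818) share a chromosome, as do Smoc2 (chr17:14279506-14404790) and Thbs2 (chr17:14665500-14694235), while Thbs1 is at chr2:118111876-118127133. No annotated gene overlapped any of them on the same strand. On the other strand, Tnc, Fn1, Thbs1 and Smoc2 each overlapped 1 gene and Vcan 2, and no source used here states whether strand entered the counting.

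The first comparison set bone against cartilage, that is, the 2 osteoblast-like classes against the 5 chondrocyte-like classes. Of the 10 genes, 5 were at least 2-fold higher in osteoblast-like cells, against 14.9% of 2995 genes with at least 50 CPM on either side. A further 3 were at least 2-fold higher in chondrocyte-like cells, against 12.2% of genes. Tnc, Postn, Vcan and Thbs2 reached 50 CPM in osteoblast-like cells alone and Smoc2 in chondrocyte-like cells alone, so their difference was partly built into that minimum. Thbs4 reached it in neither.

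On the bone side, Postn was at 333 CPM in osteoblast-like and 6.21 CPM in chondrocyte-like cells, a log2 ratio of 5.54 (95% counting interval 5.39 to 5.69, with 1 CPM added as in every log2 ratio below). Tnc was at 1312 against 33.4 CPM, a log2 ratio of 5.26 (5.18 to 5.33). Vcan was at 301 against 7.01 CPM, a log2 ratio of 5.24 (5.09 to 5.38). These 3 genes thus differed by 37.7-fold or more with 1 CPM added. With 10 CPM added, the log2 ratio was 4.41 for Postn, 4.93 for Tnc and 4.19 for Vcan. With at most 5% mitochondrial UMIs it was 4.45, 5.04 and 4.11. That setting is not the same contrast, since no immature osteoblast-like class was named in it. Its bone side held 257 cells in place of 898. Thbs2 was at 82.7 against 12.54 CPM (log2 ratio 2.63, 2.49 to 2.76), and Sparc, which both sides carried at a high level, was at 19718 against 5297 CPM (log2 ratio 1.90, 1.89 to 1.90). The Sparc difference lay in the mature class, at 30759 CPM. Immature osteoblast-like cells, at 5440 CPM, were close to the chondrocyte-like level and below Ucma-rich chondrocyte-like cells at 8831 CPM.

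On the cartilage side, Mgp was at 3981 CPM in chondrocyte-like and 184 CPM in osteoblast-like cells, 21.6-fold higher (log2 ratio of osteoblast-like over chondrocyte-like -4.43, -4.49 to -4.38). Smoc2 was at 530 against 46.1 CPM, 11.3-fold higher. Thbs1 was at 1073 against 206 CPM, 5.18-fold higher. Fn1 was 1.65-fold higher in chondrocyte-like cells, at 1897 against 1149 CPM, so it stayed under the 2-fold line. Hypertrophic cells held 36740 of the 87434 Fn1 UMIs on the cartilage side. The maturing and cycling classes, at 653 and 595 CPM, lay below both the immature and mature osteoblast-like classes, at 1601 and 799 CPM. The Ucma-rich and pre-hypertrophic classes, at 1914 and 1556 CPM, lay above the mature one. Thbs4 had 3 UMIs in osteoblast-like and 73 in chondrocyte-like cells, and its log2 ratio of -1.10 (-1.44 to -0.76) rests on those counts. With marrow stromal-like and fibroblast-like cells added to the bone side, the Thbs4 log2 ratio was 4.44.

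**Figure D2:**
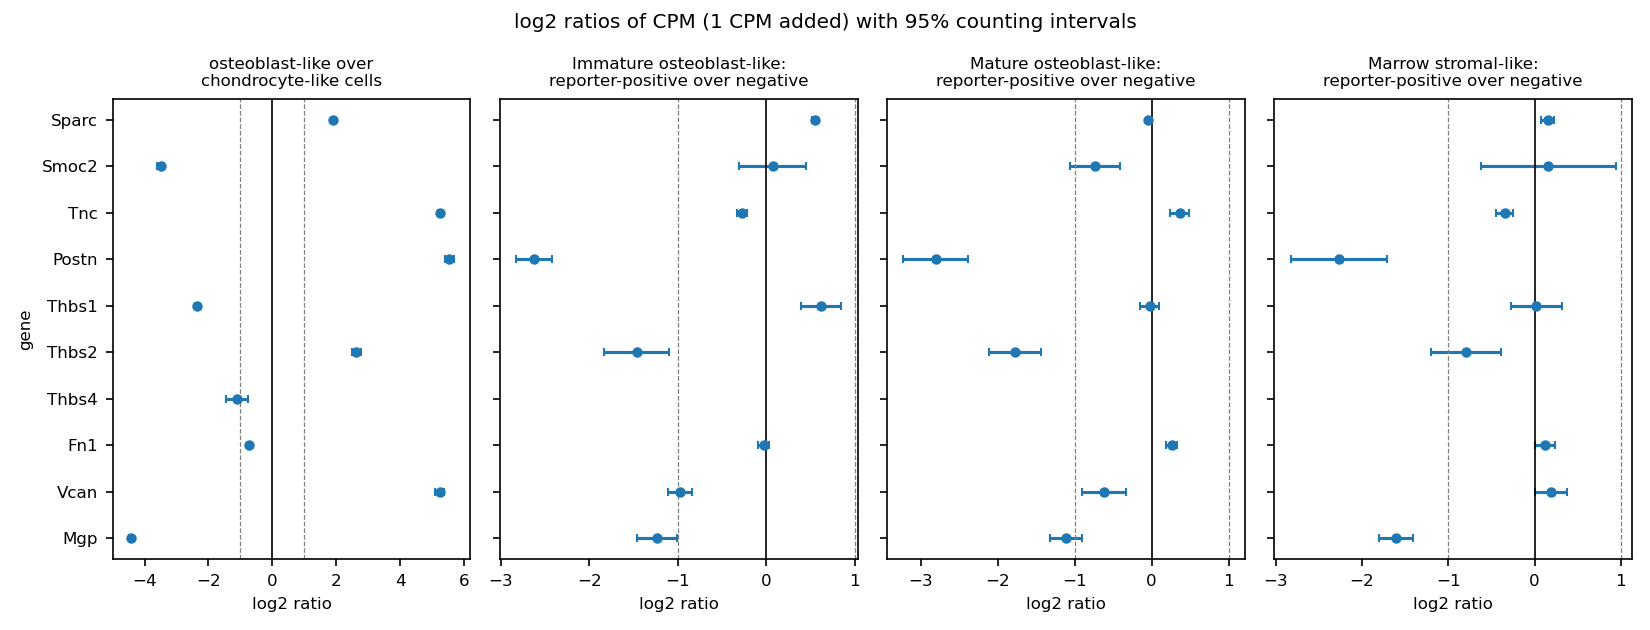
Log2 ratios of CPM for each gene (rows) with 95% counting intervals as bars: osteoblast-like over chondrocyte-like cells (left), and reporter-positive over reporter-negative cells within 3 classes (right). Dashed lines mark 2-fold. Tnc, Postn and Vcan lie above 5 in the left panel and Mgp below -4, and Postn is the lowest gene in each reporter panel. Thbs4 has no point in the reporter panels, where neither side held more than 3 UMIs.

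Sparc encodes osteonectin, a collagen-binding glycoprotein. It alone of the 10 reached 50 CPM in all 19 classes. Its lowest class was basophil or mast-like at 112 CPM, the median over the 19 classes was 4030 CPM and the highest was mature osteoblast-like at 30759 CPM (30640 to 30879). Mature osteoblast-like cells held 38.6% of all its UMIs, and their cells ranged from 12648 CPM at the 10th percentile to 50029 CPM at the 90th. Periosteal or tendon fibroblast-like cells followed at 9264 CPM and Ucma-rich chondrocyte-like cells at 8831 CPM. The pre-hypertrophic, cycling and hypertrophic chondrocyte-like classes lay at 4549, 4531 and 4434 CPM, and each of the 3 counting intervals overlapped that of the next in this order.

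Blood cells also held Sparc UMIs. Thinned to 5000 UMIs per cell, with 147 shallower cells left out, 53.1% of B lineage-like cells (exact binomial 95% interval 48.9% to 57.2%) held a Sparc UMI, at 184 CPM, and 76.8% did without thinning. Those cells had a median of 8075 UMIs. The same figure was 100% of the 399 mature osteoblast-like cells, whose median was 18566 UMIs. Among the blood classes of at least 50 cells, plasmacytoid dendritic-like and macrophage-like cells had the highest levels, at 1187 and 517 CPM. Their median cells had 169 and 94.2 CPM, against 144 CPM in B lineage-like cells, so a minority of cells set these class levels. Scrublet marked 11.7% of plasmacytoid dendritic-like and 4.85% of macrophage-like cells. The part of free RNA or of mixed cells in these levels was not tested. For each Sparc UMI, the 8 blood classes of at least 50 cells held between 0.143 (plasmacytoid dendritic-like) and 0.470 (erythroid-like) Mgp UMIs.

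Smoc2, a calcium-binding relative of Sparc, was higher in the 5 chondrocyte-like classes than in any other named class. Hypertrophic chondrocyte-like cells had 644 CPM (618 to 671), maturing 543 (531 to 555), pre-hypertrophic 535 (523 to 548), Ucma-rich 516 (501 to 531) and cycling 426 (409 to 444). The maturing and pre-hypertrophic intervals overlapped, as did the pre-hypertrophic and Ucma-rich ones. The next class, periosteal or tendon fibroblast-like, was at 124 CPM, and B lineage-like cells were at 11.2 CPM. Of the cells thinned to 5000 UMIs, 89.9% of maturing chondrocyte-like and 4.61% of B lineage-like cells held a Smoc2 UMI (99.4% and 6.96% unthinned). Its paralogue Smoc1 was highest in Ucma-rich chondrocyte-like cells, at 66.8 CPM against 14.2 CPM in hypertrophic cells, and the related Sparcl1 was highest in pericyte or smooth muscle-like cells at 606 CPM.

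Tnc encodes tenascin-C, a large glycoprotein of periosteum, tendon and healing tissue that binds integrin alpha9. Immature osteoblast-like cells had 2668 CPM (2628 to 2708) and held 53.6% of its UMIs, and marrow stromal-like cells had 2313 CPM (2256 to 2371). After thinning, 99.2% of the former and 97.0% of the latter held a Tnc UMI, against 3.75% of B lineage-like cells (99.6%, 98.4% and 5.59% unthinned). Cells of the immature class ranged from 1131 CPM at the 10th percentile to 4803 CPM at the 90th. Fibroblast-like cells followed at 670 CPM. The chondrocyte-like classes lay far lower, from 8.84 CPM in maturing to 111 CPM in hypertrophic cells.

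Plasmacytoid dendritic-like cells also carried Tnc, at 287 CPM (266 to 310), above mature osteoblast-like cells at 264 CPM. In that class, however, the median cell had 0 and 17.2% of cells held a UMI after thinning (20.1% unthinned). All 8 markers of immature osteoblasts reached 10 CPM there and summed to 931 CPM, against 3 of 8 and 92.5 CPM in B lineage-like cells, and Scrublet marked 11.7% of its cells. The part of such mixed cells in that value was not tested. Itga9, which encodes the integrin subunit that binds tenascin-C, was highest in marrow stromal-like cells (158 CPM), and the paralogue Tnn was highest in fibroblast-like cells (222 CPM) and at 45.8 CPM in immature osteoblast-like cells.

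Postn encodes periostin, which links tenascin-C and fibronectin to collagen and aids collagen crosslinking. It was highest in periosteal or tendon fibroblast-like cells at 1734 CPM (1691 to 1777), where cells ranged from 0 at the 10th percentile to 4670 CPM at the 90th. Immature osteoblast-like cells had 665 CPM (645 to 686), pericyte or smooth muscle-like cells 330 CPM (296 to 367) and marrow stromal-like cells 184 CPM (168 to 201). Mature osteoblast-like cells had 76.7 CPM, and all 5 chondrocyte-like classes were at or below 16.1 CPM. The pre-hypertrophic and maturing classes, at 1.98 and 2.21 CPM, did not differ beyond counting error from B lineage-like cells at 2.97 CPM. A cluster of 13 Schwann-like cells, too few for the ranking, had 1374 CPM, and each of its cells held a Postn UMI. The paralogue Tgfbi followed a different order, with its highest level in Ucma-rich chondrocyte-like cells at 773 CPM and 85.2 CPM in osteoblast-like cells.

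The 3 thrombospondins shared no highest class except the fibroblast-like one of Thbs2 and Thbs4. Thbs1, which activates latent TGF-beta and binds CD36 and CD47, was highest in monocyte-like cells at 6107 CPM (6047 to 6168), and 97.8% of those cells held a UMI after thinning (97.6% unthinned, 56 shallower cells left out). Pre-hypertrophic chondrocyte-like, neutrophil-like and Ucma-rich chondrocyte-like cells followed at 1276, 1261 and 1249 CPM, with overlapping intervals between neighbours in that order. Hypertrophic chondrocyte-like cells had 231 CPM (216 to 248). Immature osteoblast-like cells, at 108 CPM, had the lowest level among the skeletal and stromal classes.

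Thbs1 in the blood classes was also set against Sparc. Per Sparc UMI, monocyte-like cells held 25.1 Thbs1 UMIs and neutrophil-like cells 5.13, against 0.236 (B lineage-like) to 0.936 (promyelocyte-like) in the other 6 blood classes of at least 50 cells. The receptor gene Cd47 was highest in plasmacytoid dendritic-like cells (787 CPM), and Cd36 in endothelial-like cells (156 CPM).

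Thbs2, a close relative of Thbs1, was highest in fibroblast-like cells at 594 CPM (570 to 620), followed by pericyte or smooth muscle-like (205 CPM), marrow stromal-like (154 CPM), immature osteoblast-like (100 CPM) and mature osteoblast-like cells (69.2 CPM). Neighbours from the pericyte or smooth muscle-like class on did not overlap in their intervals. Monocyte-like cells, the highest class of Thbs1, had 2.17 CPM of Thbs2.

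Thbs4, a thrombospondin of tendon and muscle that forms pentamers, was close to absent outside 1 class. Fibroblast-like cells held 1150 of its 1281 UMIs (89.8%), at 313 CPM. The next class, hypertrophic chondrocyte-like, had 27 UMIs (7.66 CPM, 5.05 to 11.1). In immature osteoblast-like cells 0 UMIs were found, and a floor of 3 UMIs corresponds to 0.469 CPM there. Of its pentameric paralogues, Comp was highest in pre-hypertrophic chondrocyte-like cells at 6737 CPM, and Thbs3 was at 375 CPM in Ucma-rich chondrocyte-like and 369 CPM in fibroblast-like cells.

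Fn1 encodes fibronectin, the scaffold of provisional matrix. Hypertrophic chondrocyte-like cells had 10420 CPM (10314 to 10527), and these 105 cells alone held 26.7% of its UMIs. The level was 5932 CPM when cells up to 20% mitochondrial UMIs were kept. The cells varied widely, with 1306 CPM at the 10th percentile, 6355 CPM at the median and 24086 CPM at the 90th. Ucma-rich chondrocyte-like cells followed at 1914 CPM, fibroblast-like cells at 1847 CPM, immature osteoblast-like cells at 1601 CPM and pre-hypertrophic cells at 1556 CPM. Neighbours among these 4 had overlapping intervals, except that the fibroblast-like class lay above the immature osteoblast-like class. Monocyte-like cells had 1308 CPM and 5.37 Fn1 UMIs per Sparc UMI, against 0.218 to 0.476 in the other 7 blood classes of at least 50 cells. Itga5, which encodes the classical fibronectin receptor subunit, was highest in endothelial-like cells at 115 CPM and near equal in osteoblast-like and chondrocyte-like cells (17.8 and 18.4 CPM).

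Vcan encodes versican, a hyaluronan-binding proteoglycan. Its level was 615 CPM (596 to 635) in immature osteoblast-like, 464 CPM (438 to 490) in marrow stromal-like and 389 CPM (369 to 409) in fibroblast-like cells, and these intervals did not overlap. Monocyte-like cells had 97.0 CPM (89.5 to 105), and 29.8% of them held a UMI after thinning against 0.341% of B lineage-like cells (36.7% and 1.23% unthinned). Maturing and pre-hypertrophic chondrocyte-like cells had 2.41 and 1.69 CPM. The cartilage proteoglycan of the same family, Acan, was at 6326 CPM in chondrocyte-like and 244 CPM in osteoblast-like cells. Among proteases that cleave versican, Adamts5 was at 190 CPM in osteoblast-like and 11.4 CPM in chondrocyte-like cells, and Adamts1 at 204 and 49.3 CPM.

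Mgp was highest in Ucma-rich chondrocyte-like cells at 7869 CPM (7810 to 7928), then in pericyte or smooth muscle-like cells at 5192 CPM (5054 to 5332). The median cell was higher in the pericyte or smooth muscle-like class, at 4899 CPM, than in the Ucma-rich class, at 3191 CPM with a 90th percentile of 21635 CPM. At Leiden resolutions of 0.6 and 1.5 the pericyte or smooth muscle-like class was the highest, and the Ucma-rich level was 4334 and 5037 CPM. The cycling, maturing and pre-hypertrophic chondrocyte-like classes had 4039, 3416 and 2170 CPM, and hypertrophic cells had 3741 CPM (3677 to 3805). In the hypertrophic class this mean hid a wide spread, since the median cell had 672 CPM and the 90th percentile was 10091 CPM. Mature osteoblast-like cells had 139 CPM and 18.3% of them a UMI after thinning, at or below the 21.5% of B lineage-like cells (45.4% and 35.6% unthinned). Ggcx, the carboxylase that activates Mgp, was near equal in osteoblast-like and chondrocyte-like cells (23.2 and 23.9 CPM), as was Vkorc1, which recycles its vitamin K cofactor (284 and 261 CPM).

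**Figure D3:**
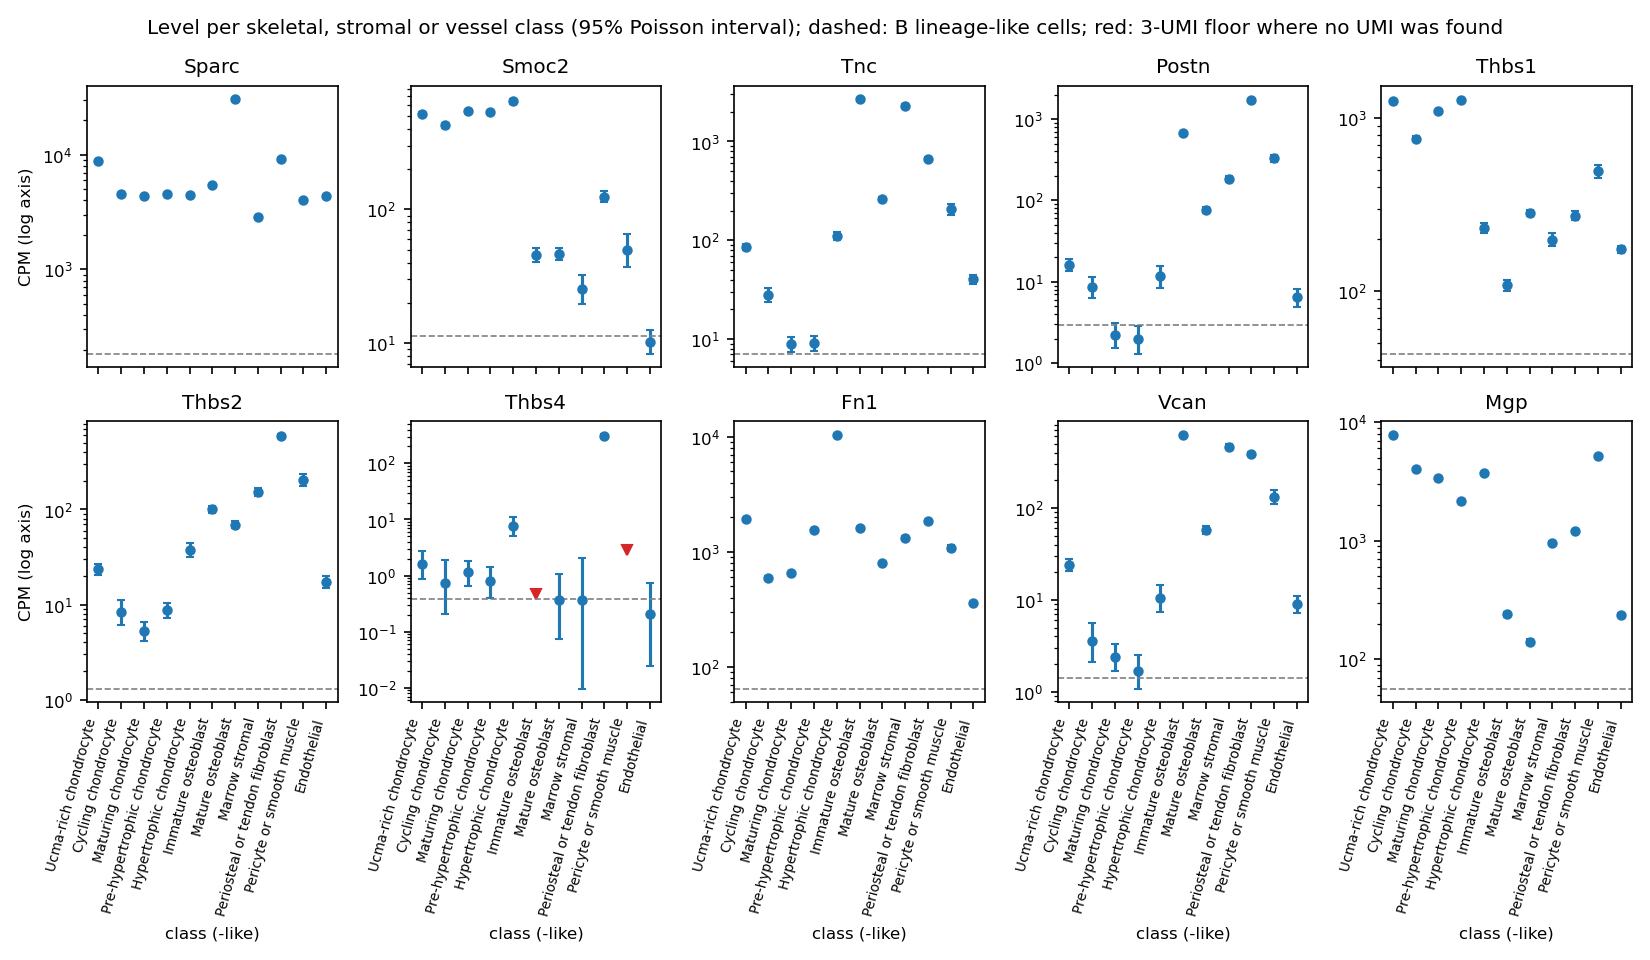
Level of each gene (panels, log axis in CPM) in 11 skeletal, stromal and vessel classes, with 95% Poisson intervals. The dashed line is the level in B lineage-like cells, and red triangles stand at the floor of 3 UMIs where no UMI was found. Tnc, Postn and Vcan come near the dashed line in maturing or pre-hypertrophic chondrocyte-like cells, and Smoc2 drops after the 5 chondrocyte-like classes.

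The step from pre-hypertrophic to hypertrophic chondrocyte-like cells was examined next, since it precedes the exit from cartilage. Fn1 was 6.70-fold higher in hypertrophic cells (log2 ratio 2.74, 2.72 to 2.77) and Tnc 11.1-fold higher (111 against 9.10 CPM). A minority of hypertrophic cells carried Tnc, since the median cell had 0, the 90th percentile was 653 CPM and 17.1% held a UMI after thinning (29.5% unthinned). The immature osteoblast markers summed to 1902 CPM there (7 of 8 at 10 CPM or more) and to 417 CPM in pre-hypertrophic cells (5 of 8). Most of the 1902 CPM came from Mmp13 (1223 CPM) and Alpl (425 CPM), and Alpl was also a marker of hypertrophic cells here. The next of these markers, Runx2, was at 89.9 CPM. The part of immature osteoblast markers in the Tnc value was not tested. Fn1 and Tnc, 2 of the 10 genes, were at least 2-fold higher, against 19.6% of 3139 genes, and the median log2 ratio over those genes was 0.40. Tnc reached 50 CPM in hypertrophic cells alone, so its difference was partly built into that minimum. Thbs1 was 5.50-fold lower in hypertrophic cells, at 231 against 1276 CPM, where 7.42% of genes were at least 2-fold lower. Sparc differed little, at 4434 against 4549 CPM. Postn, Vcan, Thbs2 and Thbs4 were between 3.95- and 4.79-fold higher but stayed below 50 CPM on both sides.

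Between immature and mature osteoblast-like cells, Sparc was 5.65-fold higher in the mature class, at 30759 against 5440 CPM, and Thbs1 2.60-fold higher. Vcan was 10.5-fold lower in the mature class, Tnc 10.1-fold lower (264 against 2668 CPM), Postn 8.57-fold lower and Fn1 2.001-fold lower. Thus 2 genes were at least 2-fold higher, against 6.38% of 3119 genes, and 4 at least 2-fold lower, against 13.9%. The median log2 ratio of all those genes was -0.39, so Fn1 lay closer to it than Tnc, Postn or Vcan. Thbs2 (69.2 against 100 CPM) and Mgp (139 against 241 CPM) were lower by less than 2-fold, and Smoc2 did not differ beyond counting error (46.5 and 45.6 CPM). The cartilage marker Col2a1 was at 2475 CPM in the mature and 482 CPM in the immature class. Its part in the values of Thbs1, Smoc2 and Mgp was not tested.

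Marrow stromal-like cells, which carry Cxcl12 and Adipoq, were close to the immature osteoblast-like class in Tnc, Fn1 and Vcan, with log2 ratios of -0.21, -0.27 and -0.41. Mgp was the gene at least 2-fold higher there (964 against 241 CPM, where 6.43% of genes were), and Postn the gene at least 2-fold lower (184 against 665 CPM, where 1.51% were).

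In 3 classes, 2 clusters used these genes differently. In the fibroblast-like class, a Tnmd-rich cluster of 162 cells, with the tendon gene Tnmd among its leading genes, was compared with an Aspn-rich cluster of 151 cells. Thbs4 was 9.35-fold lower in the Aspn-rich cells (58.6 against 556 CPM), Thbs1 4.53-fold lower, Vcan 3.44-fold lower and Fn1 3.20-fold lower. Col2a1, the cartilage collagen gene, was at 4221 CPM in the Tnmd-rich and 492 CPM in the Aspn-rich cluster, and its part in these differences was not tested. Tnc was 2.14-fold higher there (922 against 431 CPM), and Postn (2248 against 1243 CPM) and Thbs2 (731 against 464 CPM) were higher by less than 2-fold. Among all 3397 genes, 9.57% were at least 2-fold lower and 5.42% at least 2-fold higher, against 4 and 1 of the 10. Sparc, Smoc2 and Mgp differed by 1.17-fold or less. Fold values add 1 CPM, and Postn and Thbs2 were among the leading genes of the Aspn-rich cluster and Thbs4 among those of the Tnmd-rich one.

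In the Ucma-rich chondrocyte-like class, a cluster of 123 cells rich in Penk and Sfrp5 was compared with 416 cells rich in Krt16 and F3. Sparc was 2.76-fold higher in the Penk-rich cells (19105 against 6910 CPM), Smoc2 2.72-fold higher (1107 against 406 CPM) and Thbs2 5.99-fold higher (81.4 against 12.8 CPM). Of all 2660 genes, 6.13% were at least 2-fold higher. Tnc was 4.59-fold lower (20.5 against 97.9 CPM), where 3.98% of genes were at least 2-fold lower, and Mgp was within 1.05-fold (8181 against 7810 CPM). Thbs2 reached 50 CPM in the Penk-rich cells alone and Tnc in the Krt16-rich cells alone, so these differences were partly built into that minimum. Median depth was 10717 UMIs in the Penk-rich and 16449 in the Krt16-rich cells, and Mgp was among the leading genes of the latter. The Penk-rich cells had the highest Smoc2 level of any cluster of at least 50 cells.

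Endothelial-like cells divided into 740 cells rich in Emcn and 73 cells rich in Gja4 and Eln, genes of arteries. Mgp was 17.3-fold higher in the Gja4-rich cells (1869 against 107 CPM) and Fn1 8.17-fold higher (1909 against 233 CPM), with 10.8% of 3791 genes at least 2-fold higher. No member reached 2-fold lower at 50 CPM, against 6.09% of genes. Sparc was near equal at 5166 and 4287 CPM, and Thbs1 did not differ beyond counting error (175 and 174 CPM).

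**Figure D4:**
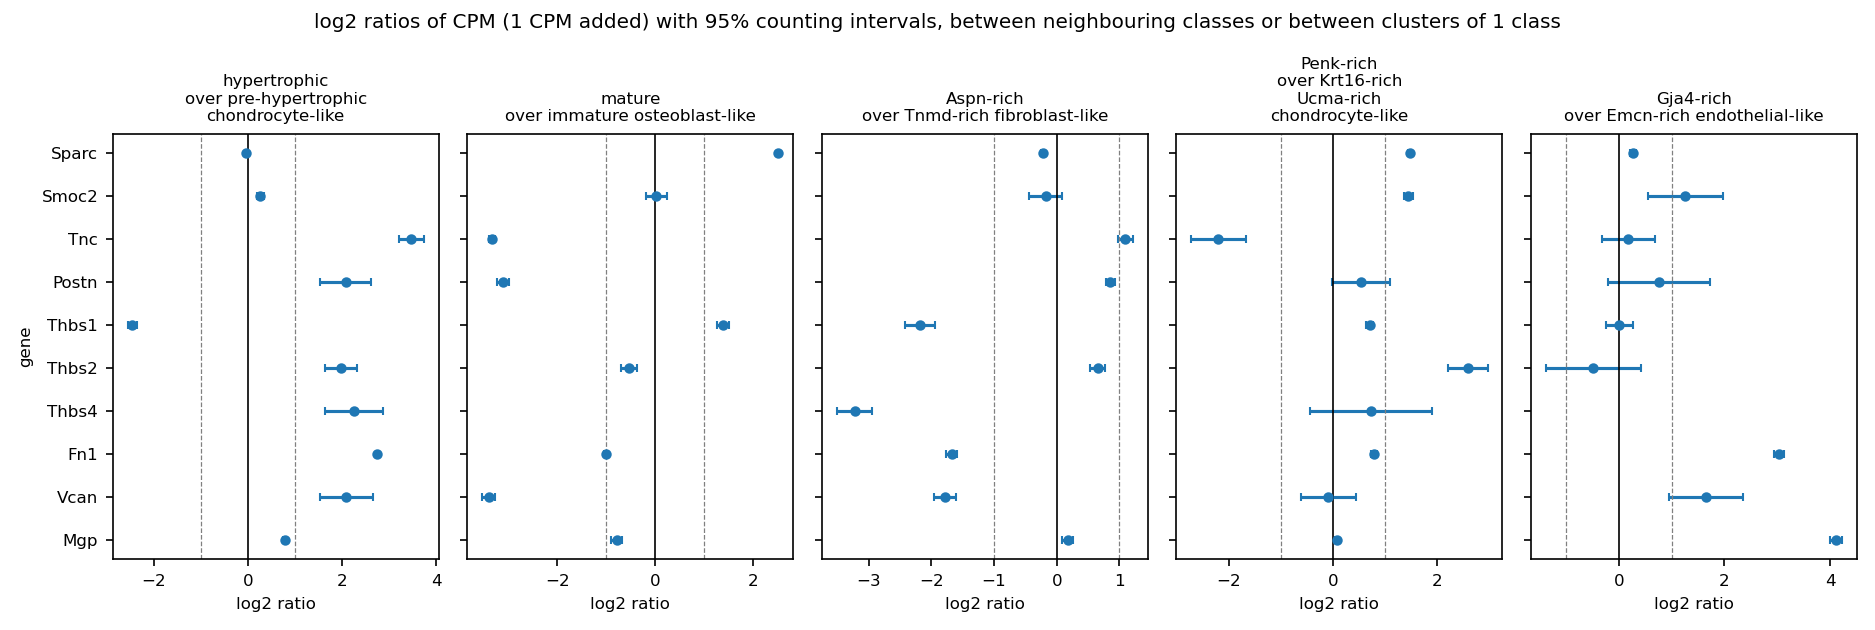
Log2 ratios of CPM with 95% counting intervals for the 10 genes (rows) between neighbouring classes (2 left panels) and between the 2 clusters of 1 class (3 right panels). Dashed lines mark 2-fold. Fn1 and Tnc lie to the right in the hypertrophic panel, Tnc, Postn and Vcan to the left in the mature osteoblast-like panel, and Mgp and Fn1 to the right in the endothelial-like panel.

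The reporter allowed a comparison within a class, of cells that carried the hypertrophic chondrocyte mark with cells that did not. A cell was called reporter-positive above 14 UMIs of WPRE, the viral element downstream of tdTomato. The study set this limit on the share of marked hypertrophic chondrocytes. It reports that the limit also fell at a saddle point of the WPRE values. By this limit 84.8% of hypertrophic, 33.1% of mature osteoblast-like, 20.1% of marrow stromal-like and 19.04% of immature osteoblast-like cells were positive. Since the limit was set on hypertrophic cells, their share is no finding. A negative cell may still descend from a marked cell whose transcript was not captured. Median depth was 12434 UMIs in the 95 positive and 10802 in the 404 negative immature cells, and 18629 against 18566 in the 132 positive and 267 negative mature cells.

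In immature osteoblast-like cells, 6 of the 10 genes were lower in the positive cells, against 49.2% of 3131 genes, so their number alone is close to the background. Postn was 6.17-fold lower, at 134 CPM in positive and 830 CPM in negative cells (log2 ratio -2.63, -2.83 to -2.42). Thbs2 was 2.76-fold lower (42.2 against 118 CPM) and Mgp 2.35-fold lower (118 against 279 CPM). At least 2-fold lower were 1.41% of those genes, which needed 50 CPM on either side. Thbs2 reached it in negative cells alone, so its difference was partly built into that minimum. No member was at least 2-fold higher, against 1.44%. Vcan was at 354 against 696 CPM, 1.97-fold lower, and Tnc at 2297 against 2783 CPM. Sparc was 1.46-fold higher in positive cells (7162 against 4905 CPM) and Thbs1 1.54-fold higher (148 against 95.6 CPM). The 6 mature osteoblast markers summed to 5692 CPM in positive and 2217 CPM in negative immature cells, with none of the 6 lower in positive cells, and their part in these values was not tested. Fn1 and Smoc2 did not differ beyond counting error. The direction of Mgp in this class turned under 3 alternative settings, in which the positive cells held 168 CPM or more of Col10a1 in place of 13.2 CPM.

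In mature osteoblast-like cells, 7 of the 10 were lower in positive cells, against 23.3% of 2501 genes, and the median log2 ratio over those genes was 0.14. Sparc and Thbs1, both near equal, are counted among the 7. A counting interval below 0 was found for 6, and over the settings the count ran from 4 to 7. Bglap, the abundant osteocalcin transcript, was at 2534 CPM in positive and 15257 CPM in negative cells. The 6 mature osteoblast markers, Bglap included, summed to 16133 and 28980 CPM, but only 2 of the 6 were lower in positive cells. Postn was 7.00-fold lower (14.9 against 110 CPM, log2 ratio -2.81, -3.23 to -2.39), Thbs2 3.43-fold lower (26.2 against 92.3 CPM) and Mgp 2.17-fold lower (78.7 against 172 CPM), where 0.68% of genes were at least 2-fold lower. No member was at least 2-fold higher, against 0.72%. Smoc2 and Vcan were lower by less than 2-fold. Postn, Thbs2, Smoc2 and Vcan reached 50 CPM, the minimum for these shares, in negative cells alone, so their difference was partly built into it. With cells above 5000 CPM of Col2a1 left out, the Smoc2 log2 ratio was -1.32, beyond 2-fold. That setting kept 126 positive and 254 negative cells. Col2a1 was then at 398 CPM in positive and 386 CPM in negative cells, in place of 2357 and 2538 CPM. The part of cartilage transcripts in the Smoc2 values was not tested. Sparc, at 30042 against 31145 CPM, was within 1.04-fold, and Thbs1 did not differ beyond counting error. Thbs4, with 3 UMIs in the class, is counted among the 10 but gave no ratio. Tnc was 1.29-fold higher (309 against 240 CPM), and Fn1 1.20-fold higher. The direction of Tnc turned with 3000 variable genes (log2 ratio -0.11), and that of Mgp with at most 5% mitochondrial UMIs (0.52). B lineage-like cells, as background, had 56.1 CPM of Mgp.

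Marrow stromal-like cells gave Postn at 45.3 CPM in 49 positive and 222 CPM in 195 negative cells (4.82-fold lower), and Mgp at 369 against 1127 CPM (3.04-fold lower), where 1.65% of genes were at least 2-fold lower. Thbs2 was 1.73-fold lower and Tnc 1.27-fold lower, and these 4 of the 10 were the lower ones, against 45.3% of 3505 genes. Postn, Thbs2 and Mgp were thus lower in positive cells of each of the 3 classes. In marrow stromal-like cells Postn reached 50 CPM in negative cells alone, so its difference was partly built into that minimum. The 3 comparisons share 1 library and 1 threshold and are not independent.

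These sizes depended on the reporter limit. With at least 1 WPRE UMI as the limit, 222 immature cells were positive and 277 negative, and 282 and 117 mature cells. The Postn log2 ratio was then -0.73 in immature, -0.99 in mature and -0.81 in marrow stromal-like cells, so it was under 2-fold in each. That of Thbs2 was -0.74 in immature and -0.34 in mature cells, and that of Mgp -0.59 and -0.18, also under 2-fold. With at least 1 tdTomato UMI, Postn had -2.02 in immature, -2.51 in mature and -3.13 in marrow stromal-like cells, while Thbs2 had -0.97 in mature cells and Mgp was under 2-fold in all 3 classes, at -0.80, -0.75 and -0.70.

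Markers of periosteal or tendon fibroblasts moved with these values, and so did some other marker lists. In immature cells 7 of the 9 markers were lower in positive cells, and their summed level was 739 CPM against 1424 CPM. Aspn was at 9.88 CPM in positive against 291 CPM in negative cells. Fndc1, Tnmd, Dpt, Clec3b and Mfap5 were at 0 in positive cells, and Clec3b was at 0 in negative cells as well. Dpt and Mfap5 had 0.312 and 0.156 CPM in the whole class, below the floor of 0.469 CPM, so their absence from positive cells carries little. In mature cells 7 of 9 were lower as well, with sums of 1985 and 2847 CPM, and in marrow stromal-like cells 6 of 9, with sums of 125 and 540 CPM. The mature sums were mostly Dcn, at 2506 of 2546 CPM in the whole mature class and at 2427 CPM in fibroblast-like cells. They therefore say little on the other markers. Tnmd, Dpt and Clec3b were at 0.362, 0.121 and 0.121 CPM in the mature class. None of these was above its floor of 0.362 CPM, so their direction carries little. The 8 pericyte or smooth muscle markers summed to 233 against 343 CPM in immature cells (5 lower). The sums were 19.7 against 80.6 CPM in mature cells (8 lower) and 782 against 922 CPM in marrow stromal-like cells (5 lower). Of 9 maturing chondrocyte markers, 8, 9 and 5 were lower. The marrow stromal markers summed higher in positive immature cells (1067 against 927 CPM). When every cell with an Aspn UMI was left out, which kept 92 positive and 237 negative immature cells, the log2 ratio in immature cells was -2.05 for Postn, -1.01 for Mgp, -0.91 for Thbs2 and -0.70 for Vcan. The part of other periosteal markers, or of pericyte or chondrocyte markers, in these values was not tested. Col10a1 was at 13.2 CPM in positive and 16.997 CPM in negative immature cells, against 11303 CPM in hypertrophic chondrocyte-like cells.

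For each gene, the 3 genes of most similar level over the 19 classes were found by Pearson's r of log2(CPM + 10), among genes with at least 50 CPM in a class. The classes come from 1 library and related classes are not independent, so r is a description. Tnc was nearest to Wif1, Cdh11 and Olfml2b (r = 0.98, 0.97 and 0.97), and Postn to Fhl1, Col3a1 and Epha3 (0.96 for each). Vcan was nearest to Zfhx4, Gas1 and Egfr (0.91 for each). Thbs2 was nearest to Fhl1, Tgfb3 and Prrx1 (0.97, 0.97 and 0.96), and Thbs4 to Sbspon, Angptl1 and Clec3b (0.99 for each).

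Sparc was nearest to Fkbp10, Serpinh1 and Sec24d (r = 0.97 for each), which serve collagen folding and export. Mgp was nearest to Il17d, Mfge8 and Ndufa4l2 (0.96, 0.94 and 0.93), and Smoc2 to Me1, Sqle and Acan (0.97 for each). Fn1 had Smim7, Selenok and Creb3 (0.92, 0.92 and 0.90), and Thbs1 had the weakest neighbours, Slc16a3, Pygl and Snx18 (0.84, 0.80 and 0.78). Among the 10 genes themselves, Postn and Thbs2 were the closest pair (r = 0.93), then Tnc and Vcan (0.90), Postn and Vcan (0.90) and Tnc and Postn (0.88). Smoc2 and Mgp had r = 0.88, and Thbs1 with Postn was lowest at -0.15.

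Pairs were also compared over the cells of 1 class, a measure not comparable with r over classes. Over cells thinned to 5000 UMIs, Spearman's rho was 0.34 for Postn and Vcan and 0.33 for Tnc and Vcan in 487 immature osteoblast-like cells. In 307 fibroblast-like cells the highest pairs were Thbs2 and Sparc at 0.56 and Fn1 and Sparc at 0.42. Postn and Thbs2 had 0.33 there, and Tnc and Postn 0.02. Fn1 and Sparc had 0.62 in 536 Ucma-rich chondrocyte-like cells and 0.46 in 105 hypertrophic cells. Fn1 and Thbs1 had 0.42 in 604 monocyte-like cells. Thbs1 and Mgp had -0.34 in the Ucma-rich cells. The Ucma-rich and fibroblast-like classes each pool 2 clusters that differ in some of these genes. In Penk-rich and Krt16-rich cells, Fn1 was at 2962 and 1718 CPM and Sparc at 19105 and 6910 CPM. The part of such differences between clusters in rho was not tested.

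The wider families, whose lists were also drawn up by name with earlier results of these data known, gave the setting. Of 21 relatives (other tenascins, thrombospondins, osteonectin-like and lectican genes, fibulins and matrix glycoproteins), 9 reached 50 CPM in osteoblast-like or chondrocyte-like cells, of which 3 were at least 2-fold higher in osteoblast-like and 5 in chondrocyte-like cells, with a median log2 ratio of -2.39. Of 15 receptors, 6 reached it, with 4 higher in osteoblast-like and 1 in chondrocyte-like cells and a median of 1.05. Of 16 partners and processing enzymes, 8 reached it, with 5 and 1 and a median of 2.04. Over all 2995 genes, 14.9% were at least 2-fold higher in osteoblast-like and 12.2% in chondrocyte-like cells, and the median was 0.06. Bmp1, whose product periostin recruits, was at 556 CPM in osteoblast-like and 53.2 CPM in chondrocyte-like cells. The link protein gene Hapln1, which secures Acan and Vcan products to hyaluronan, was at 213 and 5553 CPM. Sdc4, a syndecan that binds fibronectin, was 1201 CPM in chondrocyte-like and 211 CPM in osteoblast-like cells, and Cd44, a hyaluronan receptor, was highest in monocyte-like cells at 1169 CPM.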

How the data were processed

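Single-cell RNA-seq counts were deposited by the authors as raw UMI counts per gene and barcode, made with Cell Ranger 3.1.0 on mm10, and a second deposited matrix held tdTomato and WPRE. Seurat 3 is also named in the submitters' processing notes, and the annotation release was not stated. Barcodes with 1600 or more genes, up to 10% mitochondrial UMIs and up to 50% ribosomal protein UMIs were kept. Cells were clustered in scanpy 1.11.5 (2000 variable genes, 30 components, 20 neighbours, Leiden resolution 1), with Mmp genes, Pth1r and the 10 genes left out of the variable genes. Clusters were named from marker lists, with naming limits set after the clusters were seen. Scrublet (expected rate 10%) marked 4.15% of barcodes, which were kept here and left out in an alternative. Summed UMIs per class gave CPM with exact Poisson 95% intervals, shares carry exact Clopper-Pearson intervals, log2 ratios add 1 CPM, and a floor is 3 UMIs. PCR and cell-to-cell variation lie outside these intervals. With 1 library no test was run. All 10 genes are named, each with the 3 genes most like it. The members and lists were chosen with earlier results of these data known. The scripts were tested on simulated data. Results were recomputed under 15 other settings, and under 3 more chosen after seeing the data. The P56 sample was not analysed here.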

Additional observations from a re-analysis of the deposited data

Results flagged for a closer look

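For 2 genes, Tnc and Sparc, the reporter contrast ran in opposite directions in the 2 osteoblast-like classes, beyond counting error in each class. Fn1, Thbs1 and Smoc2 also differed in sign between the classes, but not beyond counting error in each. Tnc had a log2 ratio of reporter-positive over reporter-negative cells of -0.28 in immature and 0.36 in mature osteoblast-like cells. Sparc had 0.55 in immature and -0.052 in mature osteoblast-like cells, the latter within 1.04-fold. Over the settings tried, the mature value ranged from -0.094 to 0.19 for Sparc and from -0.11 to 0.52 for Tnc. Its direction thus depended on the setting for both genes. The counting intervals of the 2 classes did not overlap for either gene, but with 1 mouse the difference between classes was not tested.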

How the results depend on the processing

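Of 709 values recomputed under alternative settings, 437 stayed within the limits set for them, mostly the counting interval, 259 moved beyond those limits, and 13 changed sign from a ratio beyond counting error. In mature osteoblast-like cells the log2 reporter ratio of Sparc became 0.018 with at least 1 tdTomato UMI, 0.19 with at least 1 WPRE UMI and 0.029 with at most 5% mitochondrial UMIs, that of Mgp 0.52 with at most 5% mitochondrial UMIs, and that of Tnc -0.11 with 3000 variable genes. With at most 5% mitochondrial UMIs 4 of the 10 genes were lower in reporter-positive mature cells. In marrow stromal-like cells the ratio of Fn1 became -1.10 with at least 1 tdTomato UMI, -0.037 with at least 1 WPRE UMI, -0.0099 with at least 1000 genes per cell and -0.44 with the 10 genes among the variable genes. In immature cells that of Mgp became 1.94 with at least 1000 genes per cell, 2.83 with at least 2000 and 2.81 with 3000 variable genes, and Col10a1 in the positive cells was then at 268, 189 and 168 CPM. The osteoblast-like over chondrocyte-like ratio of Thbs4 became 4.44 with stromal-like and fibroblast-like cells added, a setting chosen after seeing the data, as were leaving out cells with an Aspn UMI or above 5000 CPM of Col2a1. The causes of the other changes were not tested. The highest class stayed the same in all 11 alternatives for Postn, Thbs1, Thbs2, Thbs4 and Sparc, in 10 for Tnc, Fn1 and Vcan, in 9 for Mgp and in 7 for Smoc2. No immature osteoblast-like class was named with at most 5% mitochondrial UMIs, and no hypertrophic class at Leiden resolution 0.6. No paired analysis was possible because the 4 entries are 1 counted library with no map of cells to entries, and no replicate could be left out. Depth limits Thbs4, which had 1281 UMIs in all.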

Other observations

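The 2 smallest named clusters had too few cells to be ranked with the other classes. In 13 Schwann-like cells Tnc was at 458 CPM (338 to 607), Vcan at 544 CPM (412 to 705) and Fn1 at 840 CPM (673 to 1035), while Thbs2 and Thbs4 had 0 UMIs, with a floor of 28.6 CPM for 3 UMIs. In 30 T or NK-like cells Sparc was at 1076 CPM and Mgp at 441 CPM, from 266 and 109 UMIs. The 168 unnamed cells held Smoc2 at 349.5 CPM and Mgp at 3650 CPM, beside Col2a1, and 67.9% of them were marked by Scrublet.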
